A study of Mus musculus with 12 samples.

Results

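Mouse brain taken 1.5 h after photodynamic therapy (PDT) was compared with brain of control mice. The comparison used 6 of the 12 RNA sequencing libraries of the series, 3 from each group, chosen by their titles and not by any measured value. Mice of the 1.5 h group had received 5-aminolevulinic acid (5-ALA) at 20 mg/kg, which circulated for 30 min before 635 nm laser light at a dose the labels give as 20 J/cm. The controls carry PBS in their titles and are labelled as untreated. Whether they had light or an injection is not stated. All mice were perfused with saline. The strain is given both as BALB/c and as C57BL/6, and the brain region, age, sex and time of day of collection are not given. Nothing says that the 3 libraries of a group came from separate animals, so the p-values below measure the spread between libraries, which may be technical. The comparison addresses which transcripts differ soonest after the treatment.

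5-ALA is a precursor of heme. Cells convert it to protoporphyrin IX, a pigment that passes the energy of red light to oxygen and so produces reactive oxygen species. In brain, immediate early genes such as those of the Fos, Jun, Egr and Nr4a families are transcribed within minutes of stimulation, without new protein synthesis, through factors such as CREB and SRF that are already present. Heat shock genes are switched on by HSF1 when proteins misfold, and their products refold or clear damaged proteins.

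The libraries held 15348579 to 17103868 reads in genes. Values are FPKM, fragments scaled by gene length and by a factor for each library, as the authors deposited them. That factor followed a median of ratios between libraries and not the plain read total. Values for 3 libraries are given in the order of replicates 1, 2 and 4 for controls and of replicates 1, 2 and 3 for 1.5 h. A pair of 1.5 h libraries, replicates 1 and 3, stood apart from the other 4 in RNA composition. Across protein-coding genes of at least 500 bases, their difference from the control mean sloped by -0.48 and -0.33 on the log2 scale for each doubling of length, against 0.0054 in replicate 2 and -0.015 to 0.022 in single controls. Over all tested genes, the slopes of the 1.5 h libraries were -0.14, -0.0042 and -0.092. Mitochondrial transcripts took 12.4%, 4.16% and 9.14% of reads at 1.5 h and 4.16% to 6.02% in controls. Results are therefore given per library, and the test was repeated with replicate 2 alone and with the length trend taken off each library. The fit with replicate 2 alone holds 1 library at 1.5 h. Its p-values rest on the spread of the other groups and do not measure spread at 1.5 h. Replicate 2 is also part of the main fit, so a pass with it alone is not independent. The labelled tissue was checked against 5 neuronal markers, whose summed level was 648 to 799 FPKM in controls and 786, 921 and 705 FPKM at 1.5 h. Tissue makeup also differed between libraries. The summed level of 4 choroid plexus markers was 424, 668 and 498 FPKM in controls and 6.89, 2.83 and 442 FPKM at 1.5 h, and that of 5 blood markers was 26.6, 0.524 and 6.42 FPKM in controls and 327, 13.6 and 10.5 FPKM at 1.5 h. Most of the first sum was Ttr, and most of the second was Hbb-bs and Hba-a1. In replicate 3 Ttr, Folr1 and Kl lay among the controls. Clic6 did not, at 1.42, 4.05 and 1.58 FPKM in controls and 0.252, 0.532 and 0.237 FPKM at 1.5 h. No marker of either list was at 0 in all 6 libraries, but the blood marker Cd3e was under 0.5 FPKM in each. The part of choroid plexus and blood cells in the results was not tested.

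**Figure D1:**
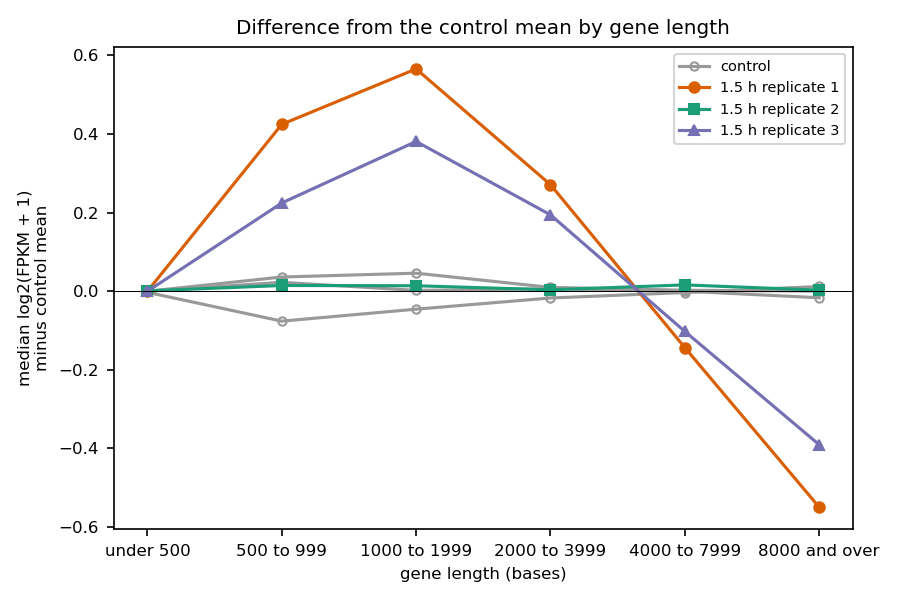
Median difference of log2(FPKM + 1) from the control mean in 6 classes of gene length (bases), 1 line for each library. In genes of 8000 bases and over, 1.5 h replicates 1 and 3 lie at -0.55 and -0.39, while replicate 2, at 0.0028, follows the controls.

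Of 17664 genes tested, 74 rose (0.419%) and 24 fell (0.136%) at 1.5 h, at a false discovery rate of 0.05 in limma on log2(FPKM + 1). The log2 changes below come from this fit, with its standard error (SE), and p-values are adjusted by Benjamini-Hochberg over all genes tested. The rises were 52 protein-coding genes, 9 pseudogenes, 3 microRNA genes and other noncoding genes, and 51 of the 74 were at least 2-fold. Among the falls, 11 were protein coding and 8 were shorter than 500 bases. In each of the 98 genes all 3 libraries of a group lay on the same side of all 3 of the other. Such separation was common: it held for 14.6% of all tested genes in the upward and 12% in the downward direction. Counts of list members below are to be read beside these shares and beside 0.419% for rises and 0.136% for falls.

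Replicate 2 usually had the smallest difference from controls. It was the lowest of the 3 treated libraries for 54 of the 74 rises and the highest for 5, while over all tested genes it was the lowest for 7492 and the highest for 7397. The median log2 difference of the rises was 1.51 in replicate 1, 0.99 in replicate 2 and 1.53 in replicate 3. For the falls it was -1.16, -0.74 and -0.98. When replicate 2 alone stood for 1.5 h, 17 genes rose (0.0962%) and 6 fell (0.034%), and 13 of the rises and 1 of the falls were among the 98. The 13 rises were Hspa1a, Hspa1b, Dnajb1, Bag3, Jun, Fosb, Gadd45g, Ptgs2, Tnfrsf12a, Rn7sk, Gm26917, Gm13889 and Gm10382. With the length trend taken off, 77 genes rose (0.436%) and 35 fell (0.198%), including 55 of the 74 and 21 of the 24. Of the rises described below, Arc, Dusp5, Srf, Crh, Gpr3, Cd164l2, Rasl11b, Cbs, Gpt, Trmt61a and Gm10382 did not pass in these values, nor did the falls of Zeb2, Casp8ap2 and Gm25772. The total of 98 became 11, 11 and 21 when control replicate 1, 2 or 4 was left out in turn, and 30, 8071 and 27 when 1.5 h replicate 1, 2 or 3 was.

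**Figure D2:**
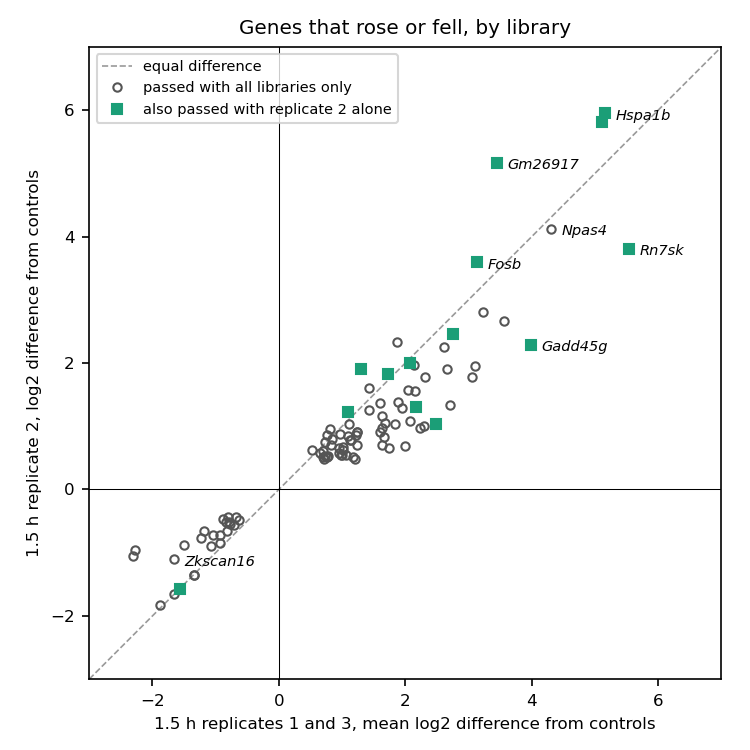
Each point is 1 of the 98 genes that rose or fell, placed by its mean log2(FPKM + 1) difference from the control mean in 1.5 h replicates 1 and 3 (horizontal) and in replicate 2 (vertical). All 74 rises are above 0 and all 24 falls below 0 on both axes, and the 14 filled squares also passed with replicate 2 alone; most rises lie below the dashed line of equal difference, 13 above it.

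Chaperone genes gave the largest rises. Hspa1a and Hspa1b, which encode inducible HSP70, the chaperone that binds unfolded proteins, lie on chromosome 17 of GRCm38 at 34969190 to 34972156 (ENSMUSG00000091971) and 34956436 to 34959238 (ENSMUSG00000090877). Hspa1a measured 1.32, 2.35 and 2.72 FPKM in controls and 111, 173 and 99.4 FPKM at 1.5 h, and Hspa1b 2.23, 3.56 and 3.51 FPKM and 151, 249 and 135 FPKM. In both genes the highest value was that of replicate 2, the library without the length trend. Some other genes, given at the end, were chosen because they differed in replicate 2. In some of them replicate 2 lay nearer to the 12 h libraries than to its own group. At 12 h Hspa1a and Hspa1b measured 1378 to 1501.5 FPKM and 2116.6 to 2306.9 FPKM. For both of these genes replicate 2 lay nearer to its own group than to the 12 h libraries. Why replicate 2 was highest was not tested. At 1.5 h the log2 changes of Hspa1a and Hspa1b were 5.35 ± 0.25 and 5.42 ± 0.28 (limma, adjusted p = 3.3e-06 and 6.3e-06). They were the only genes to pass in each of the 18 alternative fits. As near-identical paralogs they can share reads, so their separate levels are uncertain.

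The promoters of the 2 genes are also nearly the same, and they are printed here as the sequence in front of the largest rises. The 150 bases before the start of each differ at 1 base, per RefSeq on GRCm38.p6, strand minus, chr17:34972157-34972306 for Hspa1a and chr17:34959239-34959388 for Hspa1b. Capitals mark a GAA and a TTC unit spaced by 2 bases, the building block of the element that HSF1 binds. Hspb1, on the plus strand at chr5:135887769-135887918, holds the same block at 2 places.
Hspa1a: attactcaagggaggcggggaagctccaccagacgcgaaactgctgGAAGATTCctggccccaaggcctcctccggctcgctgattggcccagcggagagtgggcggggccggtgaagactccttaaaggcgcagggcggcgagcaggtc
Hspa1b: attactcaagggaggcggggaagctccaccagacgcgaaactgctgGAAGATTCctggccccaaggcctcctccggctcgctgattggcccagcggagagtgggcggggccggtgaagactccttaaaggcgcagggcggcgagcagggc
Hspb1: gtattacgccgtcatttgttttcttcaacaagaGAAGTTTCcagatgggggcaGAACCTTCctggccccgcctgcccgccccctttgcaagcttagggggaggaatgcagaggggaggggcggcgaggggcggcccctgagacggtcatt

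Other chaperones rose with them. Dnajb1, a J-domain co-chaperone of HSP70, measured 15.6, 21.6 and 24.2 FPKM in controls and 88.0, 83.6 and 87.4 FPKM at 1.5 h (log2 change 2.05 ± 0.15, limma, adjusted p = 0.00016). Its 3 treated libraries were nearly level, and it passed in 15 of the 18 alternatives. Hspb1, the small heat shock protein HSP27, measured 3.75, 5.00 and 5.38 FPKM in controls and 39.0, 25.9 and 29.3 FPKM at 1.5 h (log2 change 2.49 ± 0.26, limma, adjusted p = 0.0031). Bag3, which releases substrates from HSP70 and directs them to autophagy, measured 2.86, 3.10 and 3.71 FPKM in controls and 10.1, 8.84 and 6.30 FPKM at 1.5 h (log2 change 1.14 ± 0.16, limma, adjusted p = 0.017). Dnaja1, another J-domain partner, measured 28.4, 32.1 and 29.8 FPKM in controls and 71.1, 48.5 and 53.4 FPKM at 1.5 h (log2 change 0.90 ± 0.17, limma, adjusted p = 0.048). Hspa1a, Hspa1b, Dnajb1 and Bag3 also passed with replicate 2 alone, while Hspb1 did not (adjusted p = 0.079).

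Across the heat shock list, 6 of 28 tested genes rose and none fell. All treated libraries were above all controls in 20, against 14.6% of all tested genes. The list's median log2 change was 0.60, against 0.016 over all genes tested, and the medians per library were 0.86, 0.32 and 0.64. After the length trend was taken off, the median was 0.47 and 8 members rose. The members that did not pass included Hsph1, an HSP110 that recharges HSP70, at 37.9, 41.3 and 47.0 FPKM in controls and 76.6, 100.1 and 71.4 FPKM at 1.5 h (adjusted p = 0.054), and Hspe1, the mitochondrial co-chaperonin, at 36.4, 38.8 and 37.8 FPKM in controls and 258, 64.6 and 134 FPKM at 1.5 h (adjusted p = 0.068). The constitutive members had smaller values: Hsp90ab1, a cytosolic HSP90, had a log2 change of 0.35, and Hsf1 itself 0.56. The chaperones of the endoplasmic reticulum were a separate list, in which 0 of 18 passed, with a median of 0.32 and library medians of 0.56, 0.02 and 0.45.

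Subunits of AP-1, the dimeric factor of Fos and Jun proteins, were higher in most cases. Of 13 tested, 3 rose and none fell. All treated libraries were above all controls in 9, against 14.6% of all tested genes. The median was 1.03, with library medians of 0.96, 0.58 and 1.20. Fosb measured 1.57, 2.92 and 5.56 FPKM in controls and 12.2, 47.9 and 94.4 FPKM at 1.5 h (log2 change 3.28 ± 0.61, limma, adjusted p = 0.046), and Jun 15.3, 15.2 and 17.7 FPKM in controls and 46.7, 59.5 and 65.7 FPKM at 1.5 h (log2 change 1.76 ± 0.16, limma, adjusted p = 0.00079). Jun was the steadier of the pair and passed in 15 of 18 alternatives, Fosb in 10. Maff, a small Maf protein that pairs with other basic leucine zipper factors, measured 0.290, 0.393 and 0.816 FPKM in controls and 2.41, 3.49 and 3.64 FPKM at 1.5 h (log2 change 1.48 ± 0.21, limma, adjusted p = 0.017). Fos itself ran from 10.3, 23.1 and 34.7 to 46.7, 139 and 401 FPKM without overlap. Its treated libraries spanned a wide range, and it did not pass (limma, adjusted p = 0.086). Junb, at 28.0, 53.2 and 48.7 FPKM in controls and 132, 94.0 and 539 FPKM at 1.5 h, had its highest value in replicate 3 as well (adjusted p = 0.086).

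Egr and Nr4a genes, zinc finger and orphan nuclear receptor factors of the same early wave, had a median of 1.01 over 7 tested members, with library medians of 0.75, 1.18 and 1.43. The controls themselves spread widely, with library medians of -0.50, 0.12 and 0.455. Egr4 alone passed, at 19.8, 32.7 and 41.6 FPKM in controls and 133, 116 and 287 FPKM at 1.5 h (log2 change 2.41 ± 0.41, limma, adjusted p = 0.035). Nr4a1 measured 24.2, 39.6 and 54.7 FPKM in controls and 101, 129 and 274 FPKM at 1.5 h (adjusted p = 0.06), and Egr2 2.36, 6.22 and 9.31 FPKM in controls and 12.8, 15.9 and 29.0 FPKM at 1.5 h (adjusted p = 0.088). Both lay above controls in each treated library. Egr1, at 72.3, 114 and 131 FPKM in controls and 123, 233 and 215 FPKM at 1.5 h, overlapped: replicate 1 was below the highest control.

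Of 19 genes that carry neuronal activity into synaptic change, 7 rose, with a median of 0.81 and library medians of 0.95, 0.64 and 0.99. Npas4, a factor induced by calcium entry in neurons, measured 8.43, 18.6 and 8.08 FPKM in controls and 102, 205 and 539 FPKM at 1.5 h (log2 change 4.25 ± 0.65, limma, adjusted p = 0.021). Its treated values spread over a wide range, with replicate 3 highest. Nptx2, a secreted pentraxin that clusters AMPA receptors, was far more even, at 17.9, 13.7 and 17.3 FPKM in controls and 70.3, 66.6 and 79.5 FPKM at 1.5 h (log2 change 2.08 ± 0.23, limma, adjusted p = 0.0043), and it passed in 15 of 18 alternatives. Arc, a capsid-like regulator of receptor endocytosis, measured 74.4, 141 and 189 FPKM in controls and 563, 432 and 704 FPKM at 1.5 h (log2 change 2.14 ± 0.40, limma, adjusted p = 0.048). Bdnf, the neurotrophin, measured 2.76, 2.31 and 3.76 FPKM in controls and 12.8, 6.64 and 9.60 FPKM at 1.5 h (log2 change 1.41 ± 0.21, limma, adjusted p = 0.021). Bdnf was the lowest of these 4 in every library.

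The other members that rose act in signalling. Ptgs2, the inducible cyclooxygenase that makes prostaglandins, measured 2.04, 1.86 and 3.70 FPKM in controls and 11.6, 17.9 and 42.2 FPKM at 1.5 h (log2 change 2.66 ± 0.39, limma, adjusted p = 0.021). Its log2 difference in replicate 2 was 2.46. Rgs2, which ends signalling by G proteins, measured 11.8, 17.1 and 14.7 FPKM in controls and 42.8, 44.5 and 107 FPKM at 1.5 h (log2 change 1.96 ± 0.31, limma, adjusted p = 0.026). Gadd45b, of a family that takes part in stress signalling and DNA demethylation, measured 6.80, 6.78 and 10.3 FPKM in controls and 62.5, 21.1 and 51.4 FPKM at 1.5 h (log2 change 2.25 ± 0.36, limma, adjusted p = 0.026). Rgs2 was highest in replicate 3, Gadd45b in replicate 1. Vgf, a secreted neuropeptide precursor, did not pass at 81.1, 78.8 and 101 FPKM in controls and 147, 169 and 154 FPKM at 1.5 h (adjusted p = 0.076).

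Among early stress and growth regulators, 4 of 27 rose, with a median of 0.53 and library medians of 0.90, 0.29 and 0.81. Atf3, a stress-induced repressor of the ATF family, was nearly absent in controls at 0.134, 0.184 and 0.292 FPKM and measured 17.0, 6.60 and 10.1 FPKM at 1.5 h (log2 change 3.26 ± 0.37, limma, adjusted p = 0.0054). It was the only member of the integrated stress response list to pass, 1 of 18, where the library medians were 0.57, 0.03 and 0.51. Gadd45g measured 9.31, 10.8 and 14.3 FPKM in controls and 84.7, 59.3 and 444 FPKM at 1.5 h (log2 change 3.42 ± 0.57, limma, adjusted p = 0.031) and was far higher in replicate 3 than in the others. Srf, the factor behind many early genes, changed little but evenly, from 18.9, 19.8 and 19.6 to 31.9, 33.5 and 33.6 FPKM (log2 change 0.73 ± 0.11, limma, adjusted p = 0.021). Maff, named above, was the other member. Ier2 and Btg2 had replicate 3 values of 83.9 and 105 FPKM against 29.4 and 10.4 FPKM in replicate 1, and neither passed (adjusted p = 0.074 and 0.14).

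Of 10 phosphatases that switch off MAP kinases, 2 rose. Dusp5, a nuclear phosphatase of ERK, measured 4.58, 5.50 and 11.1 FPKM in controls and 23.1, 17.6 and 34.9 FPKM at 1.5 h (log2 change 1.73 ± 0.31, limma, adjusted p = 0.043), and Dusp14 23.2, 28.9 and 24.7 FPKM in controls and 68.1, 62.1 and 72.8 FPKM at 1.5 h (log2 change 1.37 ± 0.21, limma, adjusted p = 0.021). The list's median was 0.61, and the library medians were 0.45, 0.44 and 0.92. Dusp1, a phosphatase of the same list, was highest by far in replicate 3 and measured 14.6, 21.5 and 24.4 FPKM in controls and 21.9, 33.8 and 167 FPKM at 1.5 h (adjusted p = 0.16). Nfil3, a leucine zipper repressor of the clock list, measured 4.39, 3.38 and 8.36 FPKM in controls and 24.9, 17.0 and 22.9 FPKM at 1.5 h (log2 change 1.88 ± 0.28, limma, adjusted p = 0.021). It was 1 of 17 clock genes to pass, and that list had a median of -0.20.

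**Figure D3:**
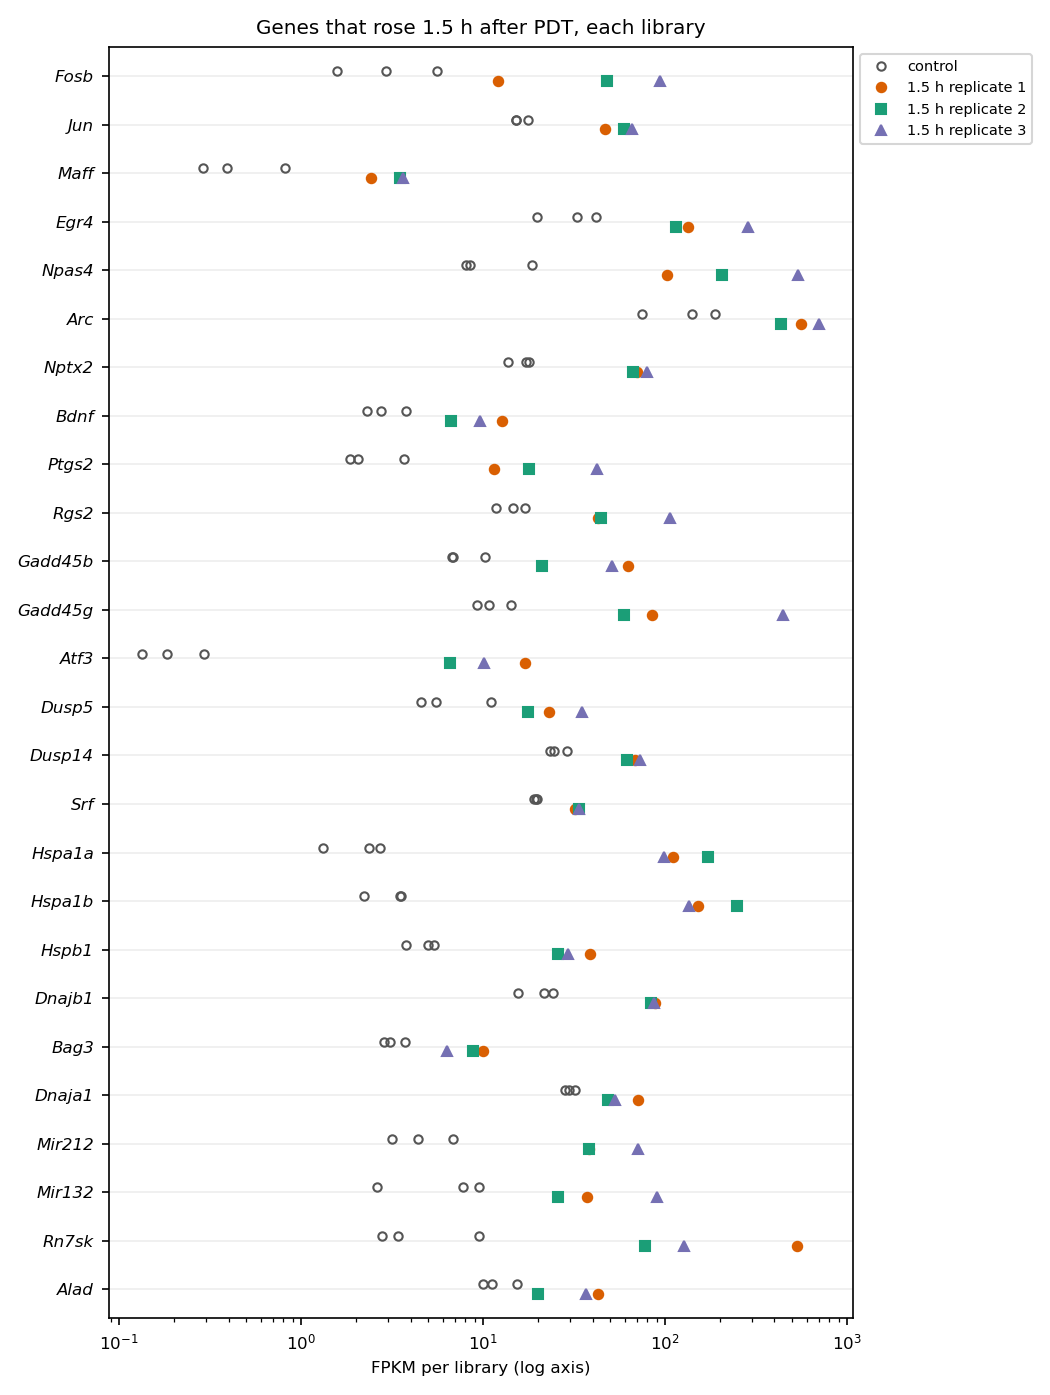
FPKM on a log axis for 26 genes that rose, open circles for the 3 controls and filled symbols for the 3 libraries at 1.5 h. No gene drawn overlaps between groups; replicate 2 is highest for Hspa1a and Hspa1b, and replicate 3 is highest for Npas4, Fosb and Gadd45g.

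The microRNA genes Mir212 and Mir132 rose together. They lie 204 bases apart on the plus strand of chromosome 11, at 75173388 to 75173478 (ENSMUSG00000065590) and 75173682 to 75173747 (ENSMUSG00000065537), inside the long noncoding gene 1700016P03Rik. This cluster is a known target of CREB in neurons. Their main mature products are shown because they share the seed, bases 2 to 8 from the 5′ end, in capitals, by which a microRNA finds its targets. The sequences are from RefSeq on GRCm38.p6.
mmu-miR-132-3p: uAACAGUCuacagccauggucg
mmu-miR-212-3p: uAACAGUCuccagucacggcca

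Both 3p arms carry the seed AACAGUC. Mir212 measured 3.17, 6.85 and 4.40 FPKM in controls and 38.0, 38.4 and 70.7 FPKM at 1.5 h, from 5, 11 and 7 reads in controls and 42, 57 and 90 at 1.5 h (log2 change 3.09 ± 0.36, limma, adjusted p = 0.0061). Mir132 measured 2.63, 9.44 and 7.80 FPKM in controls and 37.4, 26.0 and 91.0 FPKM at 1.5 h, from 3, 11 and 9 reads in controls and 30, 28 and 84 at 1.5 h (log2 change 2.72 ± 0.49, limma, adjusted p = 0.043). The host gene 1700016P03Rik was at 5.02, 10.4 and 14.1 FPKM in controls and 27.6, 22.9 and 86.0 FPKM at 1.5 h, above all controls in each library, and did not pass (limma, adjusted p = 0.078). All 3 were highest in replicate 3. Reads of a host transcript and of the hairpin within it cannot be told apart in this table, and mature microRNAs were not measured.

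Among the 198 tested members of the microRNA gene list, 3 rose and 3 fell. The third rise, Mir670hg, is a long host gene and not a hairpin. It measured 0.814, 0.901 and 1.16 FPKM in controls and 5.12, 2.48 and 5.27 FPKM at 1.5 h (log2 change 1.39 ± 0.22, limma, adjusted p = 0.026). Outside this list, Gm24270 is annotated as a microRNA gene and also rose. It had 18, 35 and 37 reads in controls and 96, 139 and 67 at 1.5 h (log2 change 2.03 ± 0.32, limma, adjusted p = 0.026). Peak1, the gene that holds it, did not pass. Mir421 was the fall with the most reads, 43, 54 and 50 in controls and 7, 12 and 12 at 1.5 h, or 32.7, 40.3 and 37.6 FPKM in controls and 7.58, 9.67 and 11.3 FPKM at 1.5 h (log2 change -1.86 ± 0.26, limma, adjusted p = 0.017). It lies on the X chromosome inside Ftx, a noncoding gene of the X-inactivation centre, as does Gm38020, an unclassified transcript that also fell, from 2.19, 2.16 and 2.57 to 0.211, 0.943 and 0.611 FPKM (log2 change -1.08 ± 0.17, limma, adjusted p = 0.021). Ftx was below its controls in each treated library, at 4.83, 4.69 and 5.06 FPKM in controls and 2.90, 3.60 and 3.55 FPKM at 1.5 h, and did not pass (adjusted p = 0.089). The other falls of the list rest on very few reads: Mir208a had 7, 6 and 4 in controls and 0, 2 and 0 at 1.5 h, and Mir7682 had 2, 2 and 2 in controls and none at 1.5 h.

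Further noncoding RNAs rose strongly. Rn7sk, the 7SK RNA that holds the elongation factor P-TEFb inactive, had 16, 20 and 55 reads in controls and 2131, 419 and 591 reads at 1.5 h, or 2.79, 3.42 and 9.50 FPKM in controls and 530.0, 77.5 and 128 FPKM at 1.5 h (log2 change 4.96 ± 0.60, limma, adjusted p = 0.007). Replicate 1 was the highest, and replicate 2 had a log2 difference of 3.81. The long noncoding gene Gm26917 measured 2.08, 1.62 and 4.28 FPKM in controls and 61.4, 125 and 22.5 FPKM at 1.5 h (log2 change 4.03 ± 0.50, limma, adjusted p = 0.0084), with replicate 2 highest. Malat1, an abundant nuclear RNA, did not pass at 43.1, 47.0 and 63.7 FPKM in controls and 17.2, 48.7 and 26.7 FPKM at 1.5 h (adjusted p = 0.12), and its replicate 2 lay among the controls. Small RNAs such as Rn7sk depend on how the library captured them, and the labels do not say how RNA was selected.

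Tnfrsf12a, the receptor of the cytokine TWEAK, measured 2.39, 2.46 and 3.05 FPKM in controls and 17.3, 7.96 and 13.4 FPKM at 1.5 h (log2 change 1.88 ± 0.23, limma, adjusted p = 0.007), with a log2 difference of 1.31 in replicate 2. Crh, corticotropin-releasing hormone, measured 3.19, 2.58 and 3.77 FPKM in controls and 7.98, 6.12 and 8.23 FPKM at 1.5 h (log2 change 1.02 ± 0.18, limma, adjusted p = 0.043). Gpr3, a receptor that signals without a ligand, measured 3.08, 3.92 and 4.98 FPKM in controls and 9.76, 7.50 and 9.78 FPKM at 1.5 h (log2 change 1.01 ± 0.19, limma, adjusted p = 0.048). Cd164l2, on the opposite strand and overlapping Gpr3, rose as well, at 0.696, 0.837 and 0.814 FPKM in controls and 2.52, 2.11 and 1.88 FPKM at 1.5 h (log2 change 0.83 ± 0.13, limma, adjusted p = 0.021). Since the strand setting of the counting is not given, reads of these 2 genes may not be separable. Rrad, a small GTPase, measured 0.366, 0.539 and 0.435 FPKM in controls and 3.13, 1.71 and 3.63 FPKM at 1.5 h (log2 change 1.37 ± 0.21, limma, adjusted p = 0.021), and Btg3, an antiproliferative protein, 3.30, 3.49 and 3.42 FPKM in controls and 10.4, 5.31 and 7.64 FPKM at 1.5 h (log2 change 0.96 ± 0.18, limma, adjusted p = 0.046).

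Htra1, a secreted serine protease, measured 32.7, 35.6 and 36.9 FPKM in controls and 72.1, 55.9 and 64.7 FPKM at 1.5 h (log2 change 0.85 ± 0.13, limma, adjusted p = 0.021). Rasl11b, a Ras-like GTPase, measured 38.3, 42.1 and 36.8 FPKM in controls and 79.7, 72.8 and 74.3 FPKM at 1.5 h (log2 change 0.94 ± 0.14, limma, adjusted p = 0.021). Cbs, which makes cystathionine from homocysteine, measured 5.44, 4.56 and 6.23 FPKM in controls and 8.84, 8.48 and 9.09 FPKM at 1.5 h (log2 change 0.62 ± 0.12, limma, adjusted p = 0.048). In these 3 genes the treated libraries were all above the highest control. Pex6, an ATPase of peroxisome import, and the aminotransferase Gpt had log2 changes of 0.69 ± 0.12 and 0.64 ± 0.12 (adjusted p = 0.037 and 0.046). These genes were chosen as examples after their values were seen. Of the 9 pseudogenes that rose, 3 carry ribosomal protein names (Rps19-ps6, Rps27a-ps2 and Rpl9-ps7) and can share reads with their parent genes. Their log2 differences in replicate 2 were 1.01, 1.38 and 0.68, against 2.44, 2.20 and 2.03 in replicate 1.

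In heme synthesis, the pathway that 5-ALA enters, 1 of 8 genes rose. Alad, the enzyme that joins 5-ALA molecules into porphobilinogen, measured 11.1, 9.99 and 15.5 FPKM in controls and 42.6, 20.1 and 36.6 FPKM at 1.5 h (log2 change 1.32 ± 0.24, limma, adjusted p = 0.046). Its lowest treated library was replicate 2, which had a log2 difference of 0.70 against 1.75 and 1.53 in the others. A pair of later enzymes did not pass: Urod measured 14.9, 15.2 and 14.7 FPKM in controls and 33.4, 13.8 and 24.7 FPKM at 1.5 h, and Fech, which puts iron into protoporphyrin IX, 21.1, 21.6 and 19.3 FPKM in controls and 21.4, 18.6 and 21.3 FPKM at 1.5 h (adjusted p = 0.16 and 0.94). The list's medians per library were 0.64, -0.11 and 0.39. Alas1, which makes 5-ALA, was at 10.1, 9.81 and 10.4 FPKM in controls and 15.7, 11 and 13.6 FPKM at 1.5 h (adjusted p = 0.1).

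Heme breakdown and antioxidant genes had no member past the threshold, 0 of 17 and 0 of 22. Hmox1, the inducible heme oxygenase, measured 2.41, 2.14 and 2.91 FPKM in controls and 21.2, 8.81 and 6.82 FPKM at 1.5 h, higher in 3 of 3 libraries (log2 change 1.78 ± 0.59, limma, adjusted p = 0.099). Alad and Hmox1 were highest in replicate 1, where the summed blood markers reached 327 FPKM, and the part of blood cells in either was not tested. Ferritin light chain, Ftl1, was at 73.8, 76.4 and 61.0 FPKM in controls and 287, 75.2 and 182 FPKM at 1.5 h, so that replicate 2 lay among the controls. Mt2, a metallothionein, measured 0.197, 0.675 and 0.973 FPKM in controls and 3.78, 1.67 and 4.25 FPKM at 1.5 h (adjusted p = 0.054). The NRF2 targets Nqo1 and Gclm, which act in quinone reduction and glutathione synthesis, had log2 changes of -0.03 and -0.32. Library medians of the 2 lists were 0.91, -0.03 and 0.56 for heme breakdown and 0.59, -0.04 and 0.35 for antioxidant genes. In both lists replicate 2 was at the level of controls. Among 22 p53 targets and death genes none passed, the median was 0.15, and Cdkn1a, the cell cycle inhibitor p21, measured 2.88, 3.24 and 8.60 FPKM in controls and 16.9, 15.1 and 19.9 FPKM at 1.5 h (adjusted p = 0.055).

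Genes of innate immune signalling were mostly at low levels. Relb, a subunit of NF-kB, measured 1.41, 1.11 and 0.957 FPKM in controls and 5.11, 2.52 and 3.16 FPKM at 1.5 h (log2 change 1.06 ± 0.20, limma, adjusted p = 0.048) and was the only 1 of 14 members of its list to rise, with a list median of 0.10. None of 19 cytokine and chemokine genes passed. All treated libraries were above all controls in 9 of them, against 14.6% of all tested genes. The list's median was 0.34, with library medians of 0.26, 0.34 and 0.20. Il1b, the cytokine interleukin 1 beta, measured 0.0909, 0.0594 and 0.0600 FPKM in controls and 2.50, 0.931 and 5.17 FPKM at 1.5 h (log2 change 1.70 ± 0.33, limma, adjusted p = 0.052). The chemokine Ccl3 was at 0, 0 and 0.0747 FPKM in controls and 2.26, 0.640 and 10.1 FPKM at 1.5 h, and Ccl4 at 0, 0.0858 and 0 FPKM in controls and 3.37, 0.557 and 18.4 FPKM at 1.5 h (adjusted p = 0.088 and 0.089). For these 3 genes replicate 3 was highest and replicate 2 lowest of the treated libraries. Ccl2 measured 0, 0.0498 and 0 FPKM in controls and 1.01, 0.915 and 2.32 FPKM at 1.5 h, while Il6 was listed at 0 in all 6 libraries. The summed level of 5 microglial markers was 81.1, 80.2 and 76.4 FPKM in controls and 114, 69.6 and 83.2 FPKM at 1.5 h. None of those markers was at 0 in all 6 libraries, and their part in these values was not tested.

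The falls were smaller than the rises. Zkscan16, a zinc finger protein of the KRAB type, fell from 9.30, 8.74 and 8.64 to 1.27, 3.59 and 3.33 FPKM (log2 change -1.47 ± 0.23, limma, adjusted p = 0.022). Sox18, a transcription factor of endothelium, fell from 3.71, 3.36 and 3.18 to 0.864, 1.36 and 1.37 FPKM (log2 change -1.01 ± 0.17, limma, adjusted p = 0.03). Apcdd1, an inhibitor of Wnt signalling, fell from 12.4, 11.4 and 10.1 to 5.41, 6.41 and 5.41 FPKM (log2 change -0.86 ± 0.16, limma, adjusted p = 0.043). Replicate 1 was the lowest library for Zkscan16 and Sox18. Gapdhs, the germ cell isoform of the glycolytic enzyme GAPDH, fell from 3.80, 3.13 and 3.73 to 1.59, 1.52 and 1.20 FPKM (log2 change -0.90 ± 0.17, limma, adjusted p = 0.048).

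Of the other protein-coding falls, Arid4a, a subunit of Sin3 corepressor complexes, fell from 6.79, 7.55 and 7.69 to 3.17, 4.82 and 4.23 FPKM (log2 change -0.73 ± 0.13, limma, adjusted p = 0.043). Zeb2, a zinc finger repressor, fell from 6.97, 6.15 and 6.31 to 3.39, 4.51 and 3.94 FPKM (log2 change -0.60 ± 0.11, limma, adjusted p = 0.041). With 19942 bases it is a long gene, and with the length trend taken off it did not pass (adjusted p = 0.41). Sp4, a factor of neuronal genes, and Nucks1, a chromatin protein, had log2 changes of -0.68 ± 0.13 and -0.75 ± 0.14 (adjusted p = 0.048 and 0.046). Casp8ap2, which acts in histone RNA processing, had -0.67 ± 0.12 (adjusted p = 0.043), and it too did not pass after length correction (adjusted p = 0.07). In none of these genes was replicate 2 the lowest of the treated libraries.

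Falls of short noncoding genes rest on few reads. Gm25772, n-R5s207 and Gm25540 had 1, 3 and 1, 2, 3 and 5 and 3, 6 and 5 reads in the controls and none at 1.5 h. Together with Mir7682, these were the 4 genes that fell to 0 in all treated libraries. A count of this size separates the groups in log2(FPKM + 1) because a few reads on a gene this short make 1 FPKM or more, so no fold change is given for them. Mir7682 was also the fall that passed with replicate 2 alone. Gm23257 had 9, 12 and 7 reads in controls and 0, 3 and 0 at 1.5 h.

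**Figure D4:**
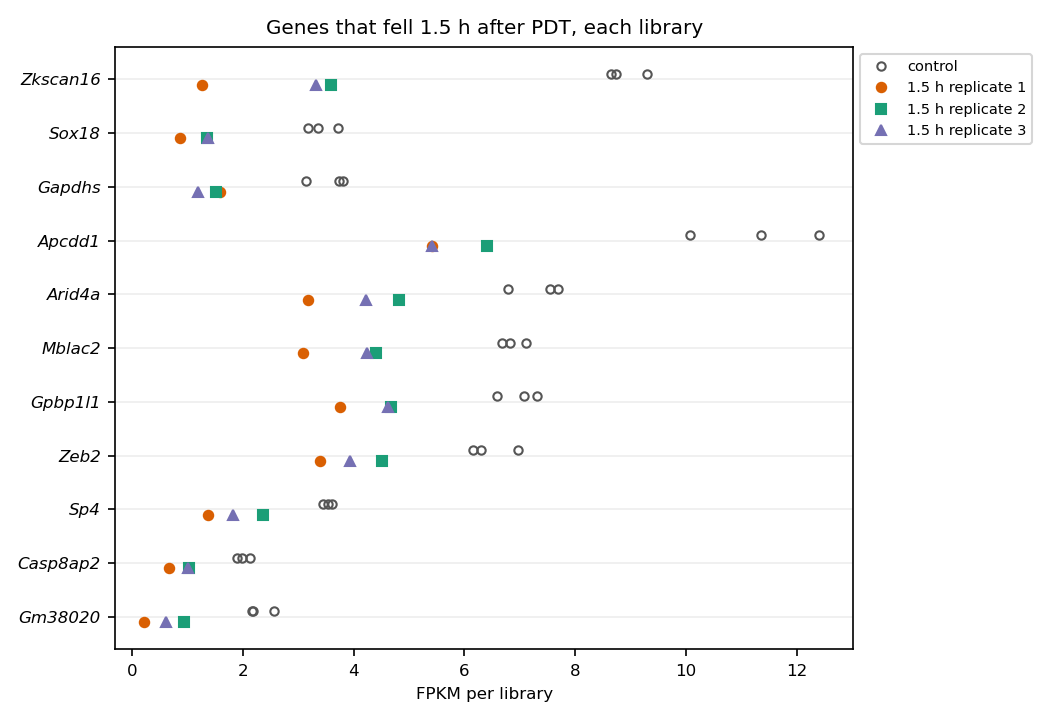
FPKM on a linear axis for 11 genes that fell, open circles for the 3 controls and filled symbols for the 3 libraries at 1.5 h. The groups do not overlap in any gene drawn, and replicate 2 lies at or near the upper end of the treated values for most.

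Vessel genes were listed because PDT is known to act on blood vessels. Of 22 endothelial identity genes Sox18 alone fell. All treated libraries were below all controls in 9 of them, against 12% of all tested genes. The list's median was -0.34, with library medians of -0.33, -0.07 and -0.49. Tek, the angiopoietin receptor, measured 1.97, 1.67 and 1.71 FPKM in controls and 0.402, 1.16 and 0.425 FPKM at 1.5 h (adjusted p = 0.098), and Flt1, a VEGF receptor, 2.55, 3.36 and 3.11 FPKM in controls and 0.829, 3.64 and 0.545 FPKM at 1.5 h (adjusted p = 0.15). For Flt1 replicate 2 was above every control. None of 20 tight junction and barrier transporter genes passed, and their median was -0.20. Cldn5, the main claudin of brain endothelium, was at 14.1, 13.5 and 15.4 FPKM in controls and 12.4, 16.6 and 12.3 FPKM at 1.5 h, Tjp1, a junction scaffold, at 13.1, 13 and 12.6 FPKM in controls and 5.30, 13 and 6.66 FPKM at 1.5 h, and Ocln, occludin, at 1.03, 1.42 and 1.33 FPKM in controls and 0.449, 0.783 and 0.830 FPKM at 1.5 h (adjusted p = 0.79, 0.11 and 0.15). Slco1a4, an organic anion transporter, measured 5.25, 5.79 and 4.82 FPKM in controls and 1.37, 3.16 and 1.11 FPKM at 1.5 h (adjusted p = 0.078). The summed level of 6 endothelial markers was 20.6, 20.5 and 23.0 FPKM in controls and 14.8, 22.6 and 14.5 FPKM at 1.5 h, and no marker was at 0 in all 6 libraries. Most of that sum was Cldn5. The others, Cdh5, Pecam1, Kdr, Tek and Emcn, were each below all controls in replicates 1 and 3. Kdr, for example, measured 0.953, 1.05 and 1.05 FPKM in controls and 0.346, 0.712 and 0.198 FPKM at 1.5 h. In bulk tissue, fewer cells of a type and less RNA per cell cannot be told apart. Plvap, a marker of leaky endothelium, was at 8.11, 6.90 and 7.48 FPKM in controls and 15.7, 7.0 and 13.1 FPKM at 1.5 h (adjusted p = 0.13).

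Markers of astrocytes and of brain regions differed between libraries of the same group. Aqp4, the water channel of astrocyte endfeet, measured 11.3, 10.1 and 13.6 FPKM in controls and 5.49, 7.58 and 7.54 FPKM at 1.5 h (adjusted p = 0.09), and Gfap 21.8, 12.7 and 26.4 FPKM in controls and 28.9, 8.86 and 29.3 FPKM at 1.5 h (adjusted p = 0.98). None of 12 homeostatic astrocyte genes passed, and their library medians were -0.65, 0.14 and -0.11. Striatum markers had library medians of -1.18, 0.40 and -1.32 at 1.5 h and of -0.51, 0.60 and -0.10 in controls. Ttr, the main transcript of choroid plexus, was at 420.1, 659 and 494 FPKM in controls and at 5.54, 1.96 and 439 FPKM at 1.5 h (adjusted p = 0.1). The labels do not say which part of the brain each library came from.

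Lists of short genes did not all move alike. The microRNA list, of median length 79 bases, had library medians of -0.39, 0 and -0.31 at 1.5 h. The mitochondrial genome list, of 75 bases, had 1.06, -0.19 and 1.13. Cytosolic ribosomal protein genes had library medians of 2.22, 0.03 and 1.43. Nuclear genes of oxidative phosphorylation had 2.09, 0.04 and 1.38. In both of these lists replicate 2 was level with controls. The fit gave them median log2 changes of 1.22 and 1.14. After the length trend was taken off, the medians were 0.997 and 0.906. Of 80 and 84 tested members, 1 each rose. Rps10 measured 1.22, 1.27 and 0.965 FPKM in controls and 4.20, 2.15 and 2.88 FPKM at 1.5 h (log2 change 0.89 ± 0.17, limma, adjusted p = 0.048), and Cox7a1, a subunit of cytochrome c oxidase, 1.30, 1.59 and 1.28 FPKM in controls and 8.16, 2.75 and 6.01 FPKM at 1.5 h (log2 change 1.38 ± 0.26, limma, adjusted p = 0.049). From the mitochondrial genome, mt-Atp8 alone of 31 genes passed, with 12, 9 and 6 reads in controls and 46, 36 and 117 at 1.5 h, or 3.40, 2.50 and 1.68 FPKM in controls and 18.6, 10.8 and 41.0 FPKM at 1.5 h (log2 change 2.63 ± 0.40, limma, adjusted p = 0.021). Its replicate 2 was above all controls.

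**Figure D5:**
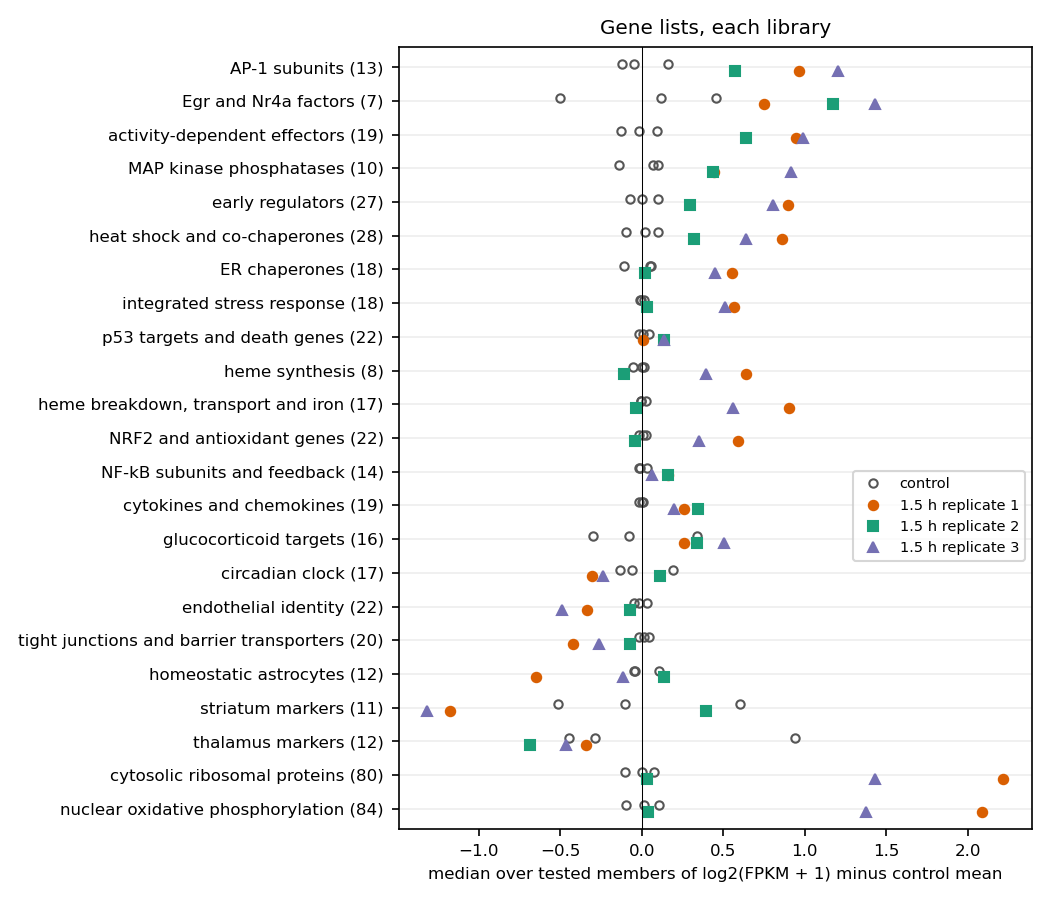
Median over the tested members of each list (number in brackets) of the log2(FPKM + 1) difference from the control mean, for each library. The early gene lists and the heat shock list lie above the controls in all 3 treated libraries, whereas ribosomal protein and oxidative phosphorylation genes do so in replicates 1 and 3 only.

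Promoters of the risen genes were searched for letters of known factors, over 250 bases before to 50 after the start in RefSeq on GRCm38.p6. Of the 74 rises, 46 had a promoter in the table. The paired GAA and TTC block (GAANNTTC or TTCNNGAA, which read the same on both strands) was in 13 of the 46, or 28.3%, against 13.9% of 11594 tested genes with a promoter. It was searched after the 3-unit heat shock element, with 1 unit more at the same spacing, was found in 0 of the 46 and in 0.561% of tested genes. Besides the 3 printed above, genes with the block included Bag3, Dnaja1, Jun and Bdnf. In Bag3 it lay after the start. Dnajb1, a chaperone gene that also rose, had no such block in its promoters. The cAMP response element TGACGTCA was in 2 of 46 (Maff and Trmt61a), or 4.35%, against 3.47%, and the AP-1 site TGANTCA in 5, or 10.9%, against 6.30%. A CArG box, the letters that SRF binds, was in 3 (Srf, Dusp5 and Gm34583), or 6.52%, against 1.67%, and a kB site in 8, or 17.4%, against 12.6%. These matches are descriptions of sequence and not of binding.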

How the data were processed

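Of 12 libraries of mouse brain RNA, the 3 of controls and the 3 of 1.5 h are compared. The deposited table held FPKM values for 54532 genes with gene length and coordinates, per the file headers. The submitters' processing notes name Bowtie 0.12.2 and the build mm8. Counting tool, strand setting and RNA selection are not given in the sources used here. Of 54495 identifiers shared with GENCODE M21, 98.33% had the same start and end on GRCm38, so positions are on GRCm38. Reads were recovered as FPKM times length over a fixed step, which came out whole, to within 0.05, in 100% of values. The authors' FPKM values already carried median-of-ratios scaling between libraries, as the reads show, and no more was applied.

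Genes that exceeded 0.5 FPKM in 3 or more libraries were kept. The test was limma 3.58.1 (R 4.3.3, trend option) on log2(FPKM + 1), fitted to all 12 libraries in 4 groups, with 8 residual and 3.09 prior degrees of freedom. The spread behind a p-value is therefore shared with the 12 h and 48 h groups. A fold on this scale understates the change of low genes. Length-corrected values had the loess trend of the log2 difference from the mean of all libraries on log2 length taken off in each library. The fit was run on simulated data with 200 changed genes. Those data had no length trend and no deviating library, so they cannot show how the fit behaves on these libraries. Correlations between libraries of a group ran from 0.919 to 0.987 across genes, and no library was a copy of another. Names were drawn by a rule: the 12 largest rises and falls without overlap and with a mean of at least 1 FPKM, list members that passed, the top member of each list in each direction, genes that passed with replicate 2 alone and 14 set genes. Not every gene under the rule is named. Any other gene that is named was picked with its values known. The members, gene lists and rule were chosen with earlier results of these data known, so lists are described by counts and medians, without a set test.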

Additional observations from a re-analysis of the deposited data

How the results depend on the processing

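The counts depended on the libraries and the fit. The direction of the 98 genes that rose or fell reversed in none of the 18 alternatives. In each of those genes all treated libraries lay beyond all controls, so most alternatives could not have reversed it. Of the 98, 5 remained with only the 2 groups in the fit (4 rises, 1 fall), and 48 with voom on recovered reads, which called 49 genes (44 and 5). Without a filter on low values 27 genes passed (21 and 6), of 34310 tested, and 115 rose at a pseudocount of 0.1. Without 1.5 h replicates 1 and 3 together 23 passed (17 and 6). Leaving out each library in turn gave 11 to 8071 genes, 9 to 4565 rises and 2 to 3506 falls. The upper ends came without 1.5 h replicate 2, where all 98 remained, and the lower ends without control replicate 1 or 2 (for falls also 4). At an unadjusted p under 0.05 there were 5581 genes. In alternatives chosen after the data were seen, length-corrected values gave 22 genes without 1.5 h replicates 1 and 3 (15 and 7) and 5 when the fit held the 2 groups alone (5 and 0). With the replicate block 4 genes passed (3 and 1). The labels share only numbers 1 and 2 between the groups, the deviations of same-numbered libraries correlated at 0.10 and -0.0012 across genes, and the numbers were not taken as pairs. The causes were not tested.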

Other observations

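Replicate 2 at 1.5 h held differences that its group's other libraries did not share. Against the controls, 9 genes passed with this library alone that did not pass with all 3. Rph3a, which encodes rabphilin, a protein of synaptic vesicles, measured 96.4, 46.7 and 46.9 FPKM in controls, 29.4 and 34.2 FPKM in 1.5 h replicates 1 and 3 and 5.10 FPKM in replicate 2. Its 12 h libraries were at 3.40, 3.42 and 3.71 FPKM. Gm13443 measured 10.7 to 16.9 FPKM in controls, 21.1 and 25.2 FPKM in replicates 1 and 3 and 0.110 FPKM in replicate 2, and 0 to 0.838 FPKM at 12 h. Snx32, a sorting nexin, was at 40.2 to 53.9 FPKM in controls, 88.9 and 79.0 FPKM in replicates 1 and 3 and 18.0 FPKM in replicate 2, and 16.3 to 20.4 FPKM at 12 h. Lsm11, of the machinery that processes histone RNAs, was higher in replicate 2 at 18.0 FPKM than in controls (5.57 to 6.72 FPKM) or the other treated libraries (6.79 and 8.93 FPKM), and it was at 25.7 to 29.8 FPKM at 12 h. In these 4 genes the value of replicate 2 lay nearer to the 12 h libraries than to the rest of its own group. Gm10076 measured 6.54 FPKM in replicate 2, below the 12 h libraries (22.1 to 35.8 FPKM), the controls (31.0 to 45.1 FPKM) and 1.5 h replicates 1 and 3 (56.2 and 38.7 FPKM). The genes were chosen because they differed in this library, so no test is given, and whether replicate 2 differed in treatment or time was not tested.

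The pseudogene Gm8696 lies 1724 bases beyond the 3′ end of Hspa1b on the same strand. It was listed at 0 in the 3 controls and at 1.71, 7.79 and 0.928 FPKM in 1.5 h replicates 1, 2 and 3. The order of the libraries was that of Hspa1b, with 151, 249 and 135 FPKM.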
